A study of Mus musculus with 15 samples.

Results

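The 10 genes described here encode receptors that restrain signalling through the B cell receptor and the phosphatases they recruit. They are the receptors Cd22, Siglecg, Cd72, Cd5, Fcgr2b, Pirb and Lilrb4a, the near-copy of the last of these, Lilr4b, and the phosphatases Ptpn6 and Inpp5d. The genes were chosen by symbol, with earlier results of these data known, and all 10 were found among the 51912 genes of the expression table. The related lists used below were chosen in the same way. Counts of either kind of set beside those of all genes are descriptions and not tests. The 15 libraries came from wild-type mouse B cells in 5 groups of 3. All cells had been grown for 6 days on 40LB feeder cells, a fibroblast line that supports B cell expansion, with IL-4 at 100 ng/ml. The D6 group is the unsorted culture at that point. The other groups had a further 2 days in medium with neither feeder cells nor stimulation and were sorted at day 8 as IgE iGC, IgG1 iGC, IgE PC and IgG1 PC, where PC stands for plasma cells and iGC for the germinal centre type B cells induced in the culture. The labels call the 3 libraries of a group biological replicates but do not say whether they came from separate animals or cultures, so the p-values measure the spread between these libraries, which may be technical.

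Inhibitory receptors of B cells carry short tyrosine motifs in their cytoplasmic tails. When these motifs are phosphorylated by Src-family kinases, they bind the tyrosine phosphatase SHP-1, encoded by Ptpn6, or the lipid phosphatase SHIP-1, encoded by Inpp5d. SHP-1 removes phosphate from the kinases and adaptors next to the receptor, and SHIP-1 removes the lipid second messenger that calls kinases to the membrane, so both lower the calcium signal that follows antigen binding.

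The libraries held between 17.7 M and 54.1 M expected counts each, which are estimated read counts per gene. All 10 genes passed the filter on low counts, and only Cd5 in IgE PC fell under its level of 0.266 CPM (counts scaled to a common library total). The PC groups carried plasma cell markers. The summed level of 5 plasma cell genes was 9098 to 18758 CPM in the PC libraries and 370 to 740 CPM in the others. Ighe, the heavy chain gene of IgE, averaged 6072 CPM in IgE iGC and 353 CPM in IgG1 iGC. In IgE PC and IgG1 PC it averaged 125634 and 1800 CPM. Ighg1, that of IgG1, averaged 922 CPM in IgE iGC and 6203 CPM in IgG1 iGC. In IgE PC and IgG1 PC it averaged 1821 and 85554 CPM. Germinal centre markers were not examined. Immunoglobulin genes took 15.3% to 21.7% of the counts in PC libraries and 1.39% to 1.62% in the others. Because of this, 2 scales are used below. CPM was scaled by the trimmed mean of M values (TMM), which sets the bulk of genes equal between libraries. TPM, which also divides by transcript length, keeps the whole library as its total and is the scale used to set the levels of different genes side by side. One library stood apart: the 2 pairs of replicates that include IgG1 PC replicate 1 had a chi-square per degree of freedom of 94.6 and 67.4, against at most 27.5 for the other 13 pairs, and that library had the lowest CPM of its group for 9 of the 10 genes, Fcgr2b excepted. In libraries made from bulk RNA, fewer cells of a type and less RNA per cell cannot be told apart.

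**Figure D1:**
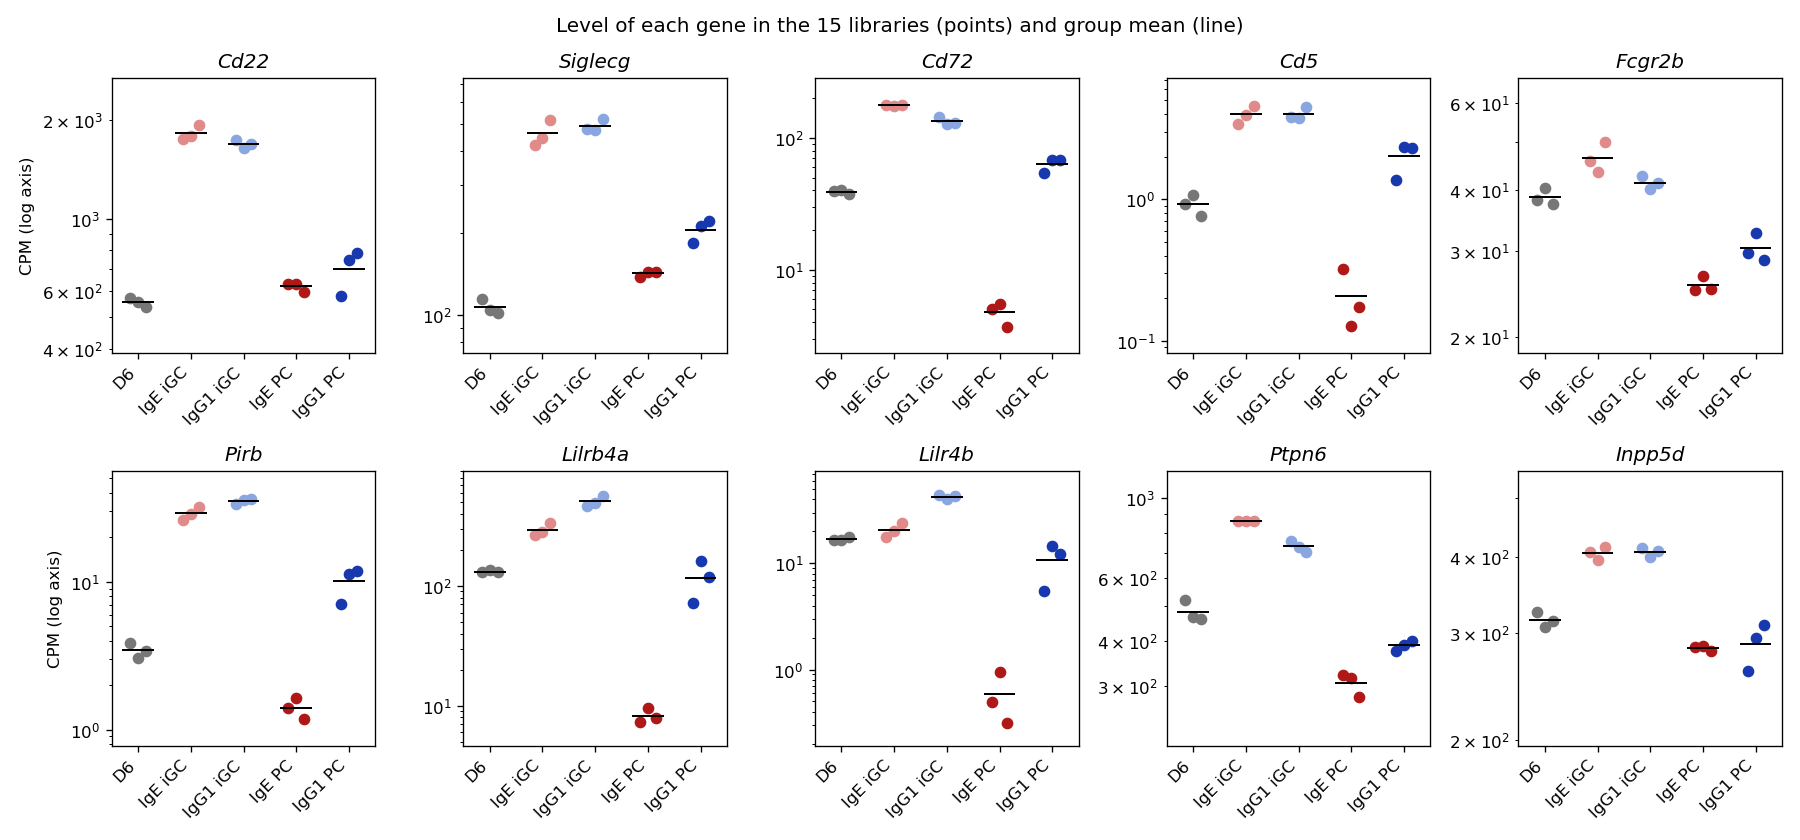
CPM (log axis, a separate range in each panel) of the 10 genes in the 15 libraries, with 1 point per library and a line at the group mean of 3. Each gene is lower in IgE PC than in IgE iGC. For Cd72, Cd5, Pirb, Lilrb4a, Lilr4b, Ptpn6 and Fcgr2b the IgE PC points also lie below those of IgG1 PC and D6.

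Cd22 and Siglecg encode the sialic acid-binding receptors CD22 and Siglec-G, which hold back B cell receptor signalling at rest. Cd22 (chr7:30865402-30880342, GRCm38) measured 571.8, 556.2 and 537.5 CPM in D6, 1744, 1790 and 1931 CPM in IgE iGC and 1736, 1643 and 1690 CPM in IgG1 iGC. In the plasma cells it measured 633.9, 631.7 and 599.1 CPM in IgE PC and 581.0, 748.2 and 783.0 CPM in IgG1 PC. Every iGC library was thus above every plasma cell library, while the ranges of IgE PC and IgG1 PC overlapped. Cd22 fell from iGC to PC by 1.55 on the log2 scale in IgE (SE 0.09, adjusted p = 3.14e-10, edgeR's quasi-likelihood test with Benjamini-Hochberg adjustment over all genes) and by 1.26 in IgG1 (SE 0.09, adjusted p = 9.44e-09). Between IgE PC and IgG1 PC the log2 difference was -0.18 (approximate 95% interval -0.36 to 0.00, adjusted p = 0.0864). Without IgG1 PC replicate 1, whose Cd22 level was the lowest of that group, the difference was -0.30 with an adjusted p of 0.000112.

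Siglecg (chr7:43408204-43418358) measured 114.4, 104.2 and 102.2 CPM in D6, 421.0, 445.8 and 519.0 CPM in IgE iGC and 480.4, 477.0 and 520.8 CPM in IgG1 iGC. It measured 137.9, 144.1 and 144.5 CPM in IgE PC and 183.9, 211.7 and 221.2 CPM in IgG1 PC. All IgE PC libraries lay below all IgG1 PC libraries, by 1.45-fold in the fit (log2 -0.53, SE 0.08, adjusted p = 5.75e-05). The fall from iGC to PC was 3.25-fold in IgE and 2.40-fold in IgG1. The difference between these falls was itself called (log2 -0.44, SE 0.12, adjusted p = 0.0069), whereas for Cd22 it was not (log2 -0.29, SE 0.12, adjusted p = 0.0696; without IgG1 PC replicate 1, -0.41 with an adjusted p of 0.00017).

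Cd72 encodes a C-type lectin-like receptor that binds semaphorin 4D and recruits SHP-1. Its gene lies at chr4:43446462-43454628 on the minus strand. It measured 39.5, 40.2 and 37.8 CPM in D6, 179.2, 174.2 and 176.7 CPM in IgE iGC and 145.3, 126.6 and 129.9 CPM in IgG1 iGC. In IgE PC it measured 5.08, 5.53 and 3.66 CPM, and in IgG1 PC 53.9, 68.2 and 67.5 CPM. No IgE PC library reached 6 CPM, while every IgG1 PC library was above every D6 library on this scale; on the TPM scale IgG1 PC, at 41.9, 68.9 and 65.3, overlapped D6, at 60.9, 66.3 and 62.9. Cd72 was 13.2-fold lower in IgE PC than in IgG1 PC (log2 -3.73, SE 0.12, adjusted p = 3.19e-11). It fell 36.9-fold from iGC to PC in IgE (log2 -5.21, SE 0.13, adjusted p = 3.97e-14) and 2.11-fold in IgG1 (log2 -1.08, SE 0.10, adjusted p = 2.60e-07). The difference between the falls was -4.13 on the log2 scale (SE 0.16, adjusted p = 1.30e-09), the largest of the 10 genes. In the iGC cells the order was the opposite, with Cd72 1.32-fold higher in IgE (log2 0.40, SE 0.10, adjusted p = 0.0314), a call that rested on the settings: 5 of the 6 fits that left out 1 iGC library, and limma on TPM, did not make it.

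Cd5 encodes a scavenger-receptor family protein that dampens antigen receptor signals in T cells and B-1a cells. It lies at chr19:10717116-10739002 and was the least abundant of the 10 genes on the TPM scale in every group. It measured 0.930, 1.07 and 0.761 CPM in D6, 3.41, 3.94 and 4.60 CPM in IgE iGC and 3.80, 3.73 and 4.49 CPM in IgG1 iGC. In IgE PC it measured 0.319, 0.126 and 0.174 CPM, which rest on 11, 4 and 5 counts, and in IgG1 PC 1.37, 2.36 and 2.31 CPM. Cd5 was 9.56-fold lower in IgE PC than in IgG1 PC (log2 -3.26, SE 0.31, adjusted p = 4.63e-07). It fell 18.6-fold from iGC to PC in IgE and 1.97-fold in IgG1, and the falls differed (log2 -3.24, SE 0.39, adjusted p = 1.34e-05). The 6 T cell markers summed to 0.811 to 2.24 CPM over all libraries, and Cd3e was at 0 counts in every library of all groups but IgG1 PC. Trac, another of the 6, was present in every library, at 20 to 84 counts. T cell markers are given because T cells express Cd5; the part of such cells in the Cd5 values was not tested.

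Fcgr2b (chr1:170958617-170976547) encodes FcγRIIB, the inhibitory receptor for the Fc part of IgG, which recruits SHIP-1. Its libraries ranged from 37.4 to 40.3 CPM in D6, from 43.5 to 50.1 CPM in IgE iGC and from 40.1 to 42.6 CPM in IgG1 iGC. They ranged from 25.0 to 26.7 CPM in IgE PC and from 28.8 to 32.6 CPM in IgG1 PC. On the TPM scale Fcgr2b averaged 45.8 in IgE iGC, 14.9 in IgE PC, 42.9 in IgG1 iGC and 21.6 in IgG1 PC. The difference between IgE PC and IgG1 PC was small but without overlap (1.19-fold lower in IgE PC, log2 -0.25, SE 0.07, adjusted p = 0.00435). Its fall from iGC to PC was 1.81-fold in IgE and 1.36-fold in IgG1, and these falls differed by -0.42 on the log2 scale (SE 0.09, adjusted p = 0.00201). The related activating receptors Fcgr1, Fcgr3 and Fcgr4 stayed under 0.41 CPM in every library.

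Pirb (chr7:3711409-3720391) encodes the paired immunoglobulin-like receptor B, which binds MHC class I and carries inhibitory motifs. It measured 3.86, 3.06 and 3.40 CPM in D6, 26.0, 28.9 and 32.0 CPM in IgE iGC and 33.6, 36.0 and 36.2 CPM in IgG1 iGC. It measured 1.39, 1.64 and 1.19 CPM in IgE PC and 7.10, 11.4 and 11.8 CPM in IgG1 PC. The groups formed an order without overlap, from IgE PC through D6, IgG1 PC and IgE iGC to IgG1 iGC, although the difference between the 2 iGC groups did not pass the test (log2 -0.29, adjusted p = 0.366). Pirb was 7.22-fold lower in IgE PC than in IgG1 PC (log2 -2.85, SE 0.19, adjusted p = 1.22e-08). It fell 20.4-fold from iGC to PC in IgE and 3.45-fold in IgG1 (difference of the falls -2.57, SE 0.24, adjusted p = 1.33e-06).

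Promoter sequence is shown for the genes among the 10 that share a motif near their start. RefSeq promoters of GRCm38.p6, running from 250 bases before to 50 bases after a gene's start, were matched for 9 of the 10 genes. Lilrb4a had none and was not searched. The letters GAGGAAGT, a motif bound by ETS factors of the PU.1 type, were searched on both strands and occurred once each in the promoters of Cd72, Pirb, Cd5 and Inpp5d, that is in 4 of 9 genes, against 3.20% of all 32851 promoters. They were absent from the windows of Cd22, Siglecg, Fcgr2b, Lilr4b and Ptpn6. The windows are chr4:43454577-43454876, minus strand, chr7:3720333-3720632, minus strand, chr19:10738925-10739224, minus strand, and chr1:87620062-87620361, plus strand, each printed 5′ to 3′ on the gene's strand with the motif in capitals.
Cd72: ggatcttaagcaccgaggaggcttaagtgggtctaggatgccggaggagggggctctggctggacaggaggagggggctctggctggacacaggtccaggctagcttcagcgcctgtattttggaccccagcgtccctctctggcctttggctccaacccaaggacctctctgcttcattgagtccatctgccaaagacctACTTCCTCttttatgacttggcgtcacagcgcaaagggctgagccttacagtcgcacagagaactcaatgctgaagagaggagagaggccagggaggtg
Pirb: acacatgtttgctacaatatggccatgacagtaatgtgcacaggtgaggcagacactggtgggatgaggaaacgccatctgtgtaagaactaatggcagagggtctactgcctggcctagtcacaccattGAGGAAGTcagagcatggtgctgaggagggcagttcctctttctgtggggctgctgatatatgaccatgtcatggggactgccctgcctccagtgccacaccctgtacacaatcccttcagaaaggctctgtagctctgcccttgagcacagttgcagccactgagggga
Cd5: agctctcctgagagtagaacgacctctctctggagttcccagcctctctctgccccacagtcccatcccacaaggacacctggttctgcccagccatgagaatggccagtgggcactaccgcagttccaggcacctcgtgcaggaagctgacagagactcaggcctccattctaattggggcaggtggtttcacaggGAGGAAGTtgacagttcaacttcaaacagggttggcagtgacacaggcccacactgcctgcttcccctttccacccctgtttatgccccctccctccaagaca
Inpp5d: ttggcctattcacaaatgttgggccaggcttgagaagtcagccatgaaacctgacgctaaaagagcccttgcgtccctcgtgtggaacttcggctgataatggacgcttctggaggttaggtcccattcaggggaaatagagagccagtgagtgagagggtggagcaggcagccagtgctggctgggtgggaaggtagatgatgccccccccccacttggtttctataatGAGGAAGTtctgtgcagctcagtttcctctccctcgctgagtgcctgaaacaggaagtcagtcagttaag
In Cd72 the letters are on the opposite strand and so read ACTTCCTC. Of the 4 genes, Cd72, Pirb and Cd5 were at least 7-fold lower in IgE PC than in IgG1 PC and Inpp5d was not called. Lilr4b, without the motif, was 18.6-fold lower, and Lilrb4a, not searched, 14.2-fold lower. A relation of the motif to these differences was not tested. A match describes the letters in the window and no binding was measured.

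Lilrb4a and Lilr4b lie next to each other at chr10:51490956-51496611 and chr10:51480632-51486703. Lilrb4a encodes gp49B, an inhibitory receptor with tyrosine motifs that recruit phosphatases, and Lilr4b encodes gp49A, a near-copy without those motifs. Lilr4b is still counted among the 10 genes and the 8 receptor genes. Both had fractional expected counts in all 15 libraries, because reads that matched more than 1 gene were divided among them. The coding sequences of the pair, 1005 and 909 bases long, were identical at 96.0% of 907 aligned bases. Of the 76-base windows in the coding transcripts of Lilrb4a, the length of a read, 91.5% also occurred in another gene, 89.5% in the predicted gene Gm49339, whose transcripts overlap it. For Lilr4b the share was 18.2%. The longest stretch that both share exactly, 126 bases at coding positions 302 to 427, shows why single reads cannot always be placed; a read from inside it carries no letter that tells the genes apart.
Lilrb4a and Lilr4b: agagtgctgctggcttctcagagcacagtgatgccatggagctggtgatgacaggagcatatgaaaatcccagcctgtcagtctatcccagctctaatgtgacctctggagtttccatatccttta
The 76 bases just before it, positions 226 to 301, hold 10 differences, shown in capitals, and are the read-length window with the most.
Lilrb4a: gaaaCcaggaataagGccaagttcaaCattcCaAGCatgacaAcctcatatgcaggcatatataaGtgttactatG
Lilr4b: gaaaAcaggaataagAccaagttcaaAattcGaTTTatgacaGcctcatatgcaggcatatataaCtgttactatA

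Lilrb4a measured 129.6, 134.7 and 130.8 CPM in D6, 263.5, 283.9 and 336.4 CPM in IgE iGC and 467.4, 491.7 and 558.2 CPM in IgG1 iGC. It measured 7.40, 9.60 and 7.91 CPM in IgE PC, and 72.3, 161.2 and 118.2 CPM in IgG1 PC, the most scattered group. All IgE PC libraries were under 10 CPM and all others were above 70 CPM. Lilrb4a was 14.2-fold lower in IgE PC than in IgG1 PC (log2 -3.82, SE 0.24, adjusted p = 1.93e-08). It fell 35.5-fold from iGC to PC in IgE and 4.30-fold in IgG1, and the falls differed by -3.04 on the log2 scale (SE 0.31, adjusted p = 5.37e-06).

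Lilr4b measured 16.4, 16.5 and 17.7 CPM in D6, 17.8, 20.2 and 24.0 CPM in IgE iGC and 44.0, 40.3 and 43.2 CPM in IgG1 iGC. It measured 0.493, 0.947 and 0.314 CPM in IgE PC and 5.49, 14.7 and 12.2 CPM in IgG1 PC. IgG1 iGC was therefore the highest group, and IgE PC the one group under 1 CPM. Lilr4b was 18.6-fold lower in IgE PC than in IgG1 PC (log2 -4.21, SE 0.38, adjusted p = 6.26e-07). The fall from iGC to PC was 34.6-fold in IgE and 3.86-fold in IgG1 (difference of the falls -3.16, SE 0.47, adjusted p = 0.000148).

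Because reads were divided among these genes, the counts of Lilrb4a, Lilr4b and Gm49339 were also summed into a single feature. The sum was 189.0 ± 4.35 CPM in D6, 368.9 ± 40.8 in IgE iGC, 639.3 ± 43.2 in IgG1 iGC, 10.7 ± 1.34 in IgE PC and 161.9 ± 58.7 in IgG1 PC (mean ± SD, n = 3). Lilrb4a held 69.7% to 79.8% of it as group means, Gm49339 14.3% to 21.4% and Lilr4b 5.27% to 8.93%. The sum thus mainly follows Lilrb4a and cannot show how Lilr4b alone behaved. The sum was lower in IgE PC than in IgG1 PC by -3.92 on the log2 scale (SE 0.23, adjusted p = 8.99e-09), close to the values of the separate genes. In iGC cells it was lower in IgE by -0.79 (SE 0.20, adjusted p = 0.0379). Pirb, with fractional counts in 15 libraries and 29.8% of its windows shared, summed with the genes that share at least 50 windows with it, gave -2.96 between IgE PC and IgG1 PC. Fcgr2b had fractional counts in 11 libraries and 4.06% shared windows, and its sum with Fcgr3 gave -0.25. Siglecg had fractional counts in 3 libraries and 5.77% shared windows, and the other 5 genes had neither.

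The genes of the Lilrb4 and Pirb families are also expressed by myeloid cells. The 6 myeloid markers summed to 10.2 to 11.0 CPM in D6, 17.1 to 19.4 in IgE iGC, 21.3 to 23.9 in IgG1 iGC, 18.6 to 20.1 in IgE PC and 24.0 to 27.2 in IgG1 PC, and Csf1r was at 0 in IgE PC. Cd68, Itgam and Adgre1 were present in every library, Cd68 at 243 to 1053 counts. Markers of mast cells and basophils, which also express Lilrb4a, summed to at most 0.637 CPM in any library. The part of such cells in the values of Lilrb4a, Lilr4b and Pirb was not tested.

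The phosphatase genes changed less than most receptors. Ptpn6 (chr6:124720707-124738714) measured 518.6, 465.2 and 460.8 CPM in D6, 859.3, 860.1 and 859.9 CPM in IgE iGC and 758.9, 731.7 and 707.5 CPM in IgG1 iGC. It measured 322.3, 315.2 and 280.3 CPM in IgE PC and 376.3, 390.9 and 401.3 CPM in IgG1 PC. The 5 groups did not overlap. Ptpn6 was 1.27-fold lower in IgE PC than in IgG1 PC (log2 -0.35, SE 0.06, adjusted p = 0.000221). It fell 2.81-fold from iGC to PC in IgE and 1.88-fold in IgG1 (difference of the falls -0.58, SE 0.09, adjusted p = 0.000111).

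Inpp5d (chr1:87620312-87720507) ranged from 307.2 to 325.0 CPM in D6, from 396.0 to 415.5 CPM in IgE iGC, from 400.1 to 413.7 CPM in IgG1 iGC, from 280.1 to 285.7 CPM in IgE PC and from 259.8 to 309.2 CPM in IgG1 PC. The isotypes overlapped at both stages. The log2 difference between IgE PC and IgG1 PC was -0.02 with an approximate 95% interval of -0.15 to 0.10 (adjusted p = 0.758), so a difference of the size seen for Ptpn6 lies outside it. It fell by 0.52 on the log2 scale in IgE (SE 0.06, adjusted p = 1.16e-06) and by 0.50 in IgG1 (SE 0.06, adjusted p = 3.34e-06). The difference between these falls was -0.02 (interval -0.19 to 0.16, adjusted p = 0.884).

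Per length, the ratio of Ptpn6 to Inpp5d TPM was 2.65 ± 0.0926 in D6, 3.76 ± 0.344 in IgE iGC, 3.06 ± 0.134 in IgG1 iGC, 1.98 ± 0.221 in IgE PC and 2.46 ± 0.137 in IgG1 PC (mean ± SD, n = 3). Each plasma cell group was below its iGC group.

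The first comparison over the set, IgE PC against IgG1 PC, asked how the isotypes differ once cells have become plasma cells. None of the 10 genes was higher in IgE PC and 8 were lower, all 8 with ranges that did not overlap. The share of all genes with ranges apart was not counted. A gap between ranges did not need a call. Between IgE iGC and IgG1 iGC, 7 of the 10 had ranges apart, with 1 called higher and 1 lower. Of all 15692 genes tested, 27.4% were higher and 30.7% lower in IgE PC. Without IgG1 PC replicate 1, 9 of the 10 were called, Cd22 being the one gained. The median log2 difference was -1.69 over the 10 genes and -0.05 over all genes tested. The genes spread into large and small differences: Lilr4b, Lilrb4a, Cd72, Cd5 and Pirb were 7.22-fold to 18.6-fold lower, Siglecg, Ptpn6 and Fcgr2b 1.19-fold to 1.45-fold lower, and Cd22 and Inpp5d were not called. Under scaling by the total count in place of TMM, the median of all genes moved from -0.05 to -0.30, and Cd22 at -0.44 and Inpp5d at -0.28 were then called lower too.

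Markers of other cells moved with this comparison. The 6 fibroblast markers, which the feeder cells would carry, summed to 19.0 to 30.6 CPM in IgE PC and 64.9 to 169 CPM in IgG1 PC, and 5 of the 6 were called lower in IgE PC. Of the 4 B cell markers, 3 were called lower in IgE PC, and their sum was 2377 to 2532 CPM there against 3491 to 3739 CPM in IgG1 PC. Of the 5 plasma cell markers, 3 were called higher in IgE PC. Of the 4 myeloid markers tested, 3 were called lower in IgE PC (median log2 -2.09): Adgre1 at -3.53, Itgam at -2.31 and Cd68 at -0.21. The part of these differences in the values of the inhibitory genes was not tested.

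Within each isotype, every one of the 10 genes fell from iGC to PC, and in both isotypes all 10 had ranges without overlap. Among all genes, 30.5% rose and 33.6% fell in IgE, and 30.1% rose and 29.0% fell in IgG1. The median log2 change of the 10 genes was -2.96 in IgE, with 8 genes falling at least 2-fold, and -1.17 in IgG1, with 6 falling at least 2-fold. Neither the share of all genes without overlap nor the share falling at least 2-fold was counted. Over all genes the medians were -0.08 and 0.01. The test of the difference between the falls called 8 of the 10 genes, all with the larger fall in IgE, where 19.8% of all genes had a positive and 23.1% a negative difference. Without IgG1 PC replicate 1 this count was 9, again with Cd22 gained. The median difference was -1.57 for the 10 genes and -0.06 for all genes. Marker lists moved over the same step. B cell markers fell, 4 of 4 in IgE and 3 of 4 in IgG1. Of the 4 myeloid markers tested, 3 fell and 1 rose in IgE (median log2 -2.81), and 2 fell and 1 rose in IgG1 (median log2 -0.10). Of the 6 fibroblast markers, 1 fell in IgE (median log2 -0.91) and 4 rose in IgG1 (median log2 1.82). In the test of the difference, 3 of 4 B cell, 3 of 4 myeloid and 5 of 6 fibroblast markers were called negative, and their part in the result was not tested.

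**Figure D2:**
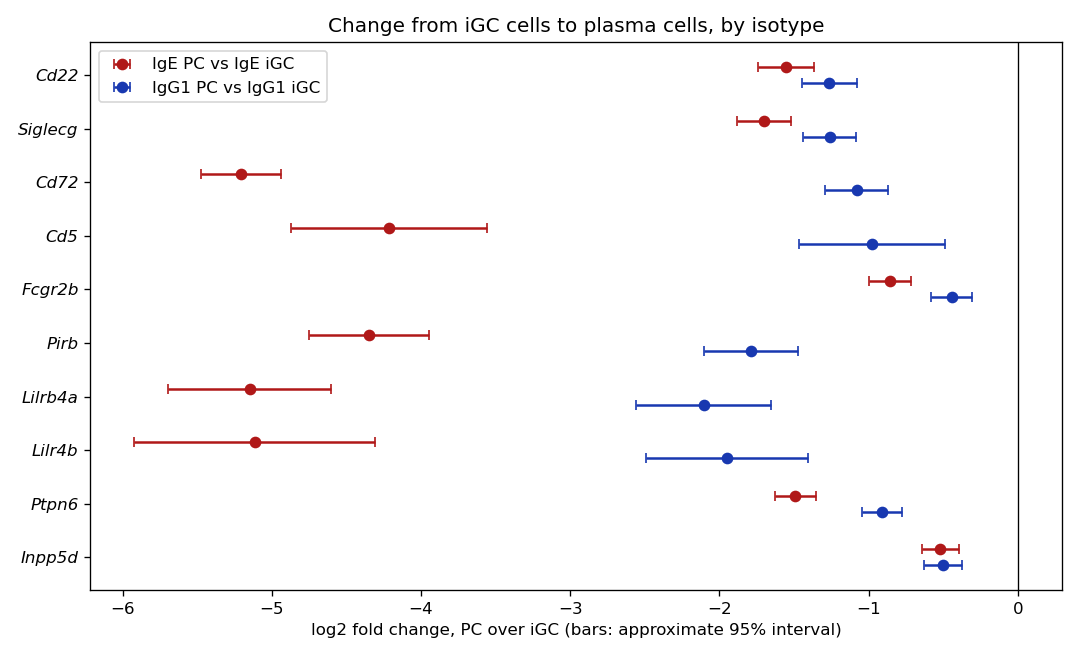
Log2 fold change from iGC to PC for each gene in IgE (red) and IgG1 (blue), with approximate 95% intervals from the fit to 15 libraries. Inpp5d has nearly the same value in both isotypes (-0.52 and -0.50), whereas Cd72 stands at -5.21 in IgE and -1.08 in IgG1.

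The isotypes were also compared between the 2 iGC groups. Between IgE iGC and IgG1 iGC, 1 of the 10 genes was higher in IgE, Cd72, and 1 lower, Lilr4b (log2 -1.05, SE 0.25, adjusted p = 0.0281). Of all genes, 1.99% were higher and 1.88% lower. Lilrb4a missed the threshold (log2 -0.78, SE 0.20, adjusted p = 0.0508), as did Ptpn6 (log2 0.23, SE 0.06, adjusted p = 0.0547), although neither gene's libraries overlapped between the isotypes. The log2 differences of the remaining 6 genes lay between -0.29 and 0.17. These calls depended on the fit: no fit that left out 1 library kept more than 1 of them, and a fit to the 2 iGC groups alone called 5 genes. Plasma cell markers summed to 646 to 740 CPM in IgE iGC and 370 to 391 CPM in IgG1 iGC. Of the 5, 2 were called higher in IgE, Jchain (log2 1.42) and Prdm1 (log2 0.59). Of the 4 myeloid markers tested, 1 was called lower, Adgre1 (log2 -1.42). None of the 4 B cell or 6 fibroblast markers was called. The part of these markers in the comparison was not tested.

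Against the day 6 culture, iGC cells had more of nearly all of the inhibitory genes. In IgE iGC 9 of the 10 were higher than in D6, Lilr4b being the exception (log2 0.28, adjusted p = 0.326). In IgG1 iGC 9 were higher, Fcgr2b being the exception (log2 0.10, adjusted p = 0.195). Among all genes, 32.8% were higher and 36.3% lower in IgE iGC, and 32.4% higher and 36.0% lower in IgG1 iGC. The median log2 difference of the 10 genes was 1.44 for IgE iGC and 1.69 for IgG1 iGC. Pirb had the largest rise in both, 8.38-fold (log2 3.07, SE 0.16, adjusted p = 3.24e-10) and 10.2-fold (log2 3.35, SE 0.16, adjusted p = 1.37e-10). These 2 comparisons, and those of the plasma cells with D6, share the D6 libraries. On the TPM scale the IgE iGC calls for Inpp5d and Fcgr2b were lost.

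Plasma cells parted from the day 6 culture in different ways. In IgE PC 8 of the 10 genes were lower than in D6 and 1, Siglecg, was higher (log2 0.41, SE 0.08, adjusted p = 0.000337); among all genes 36.9% were higher and 39.5% lower. In IgG1 PC 5 were higher (Cd22, Cd72, Pirb, Cd5 and Siglecg) and 3 lower (Ptpn6, Fcgr2b and Lilr4b), where 35.9% of all genes were higher and 36.0% lower. Cd72 was 8.19-fold lower than D6 in IgE PC (log2 -3.03) and 1.62-fold higher in IgG1 PC (log2 0.69), and Pirb was 2.43-fold lower (log2 -1.28) and 2.97-fold higher (log2 1.57). The direction of the small differences depended on the scale. On the TPM scale Siglecg in IgE PC turned to -0.35, and in IgG1 PC Cd22 turned to -0.47, Cd72 to -0.14, and Cd5 lost its call (0.34, adjusted p = 0.268). Under total-count scaling Siglecg in IgE PC stood at -0.12 and Cd22 in IgG1 PC at 0.07, neither called. The call for Inpp5d in IgE PC (log2 -0.15, adjusted p = 0.0259) was lost without IgE PC replicate 3 (-0.08, adjusted p = 0.298). That for Lilr4b in IgG1 PC (log2 -0.62, adjusted p = 0.0407) was lost without IgG1 PC replicate 1 (-0.32, adjusted p = 0.0643). Lilrb4a in IgG1 PC (log2 -0.16, adjusted p = 0.484) was called lower without IgG1 PC replicate 2 (-0.45, adjusted p = 0.0333). The fibroblast marker sum was highest in D6, at 200.2 to 301.8 CPM. B cell markers differed from D6 as well, with 3 of 4 higher in IgE iGC, 4 of 4 higher in IgG1 iGC, 1 higher and 3 lower in IgE PC, and 1 higher and 2 lower in IgG1 PC. The part of these markers in the comparisons with D6 was not tested.

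Per length, Cd22 and Ptpn6 had the highest TPM of the 10 genes in every group. In D6 they did not differ beyond their spread (423.5 ± 17.7 TPM for Cd22 and 442.0 ± 28.1 for Ptpn6), and in IgG1 PC they overlapped as well. In IgG1 iGC the order was Cd22 at 1183 TPM, Ptpn6 at 614.7, Lilrb4a at 417.6, Siglecg at 252.8, Inpp5d at 201.0 and Cd72 at 199.9, with only the last 2 overlapping among neighbours. In IgE PC it was Cd22 at 250.0 TPM, Ptpn6 at 159.3, Inpp5d at 80.6, Siglecg at 46.5 and Fcgr2b at 14.9, and the remaining 5 genes were under 5 TPM. Lilrb4a thus came next after Ptpn6 in IgG1 iGC and was among those 5 in IgE PC, where it overlapped Cd72.

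Summed over the 8 receptor genes, the level was 728.2 ± 22.9 TPM in D6, 2095 ± 220 in IgE iGC, 2149 ± 55.4 in IgG1 iGC, 320.3 ± 23.9 in IgE PC and 553.3 ± 157 in IgG1 PC (mean ± SD, n = 3). Cd22 and Siglecg, the sialic acid-binding receptors, made up 66.3% ± 0.953 of this sum in D6, 72.0% ± 0.836 in IgE iGC, 66.8% ± 0.679 in IgG1 iGC and 71.0% ± 1.76 in IgG1 PC. In IgE PC they made up 92.6% ± 0.622, and the highest library of any other group was at 72.8%. Cd22 alone held the largest share in every group, 58.1% in D6, 60.8% in IgE iGC, 55.1% in IgG1 iGC, 56.9% in IgG1 PC and 78.0% ± 1.09 in IgE PC. TPM keeps immunoglobulin reads in its total, so the order of summed levels between plasma cells and D6 holds for TPM only. Cd22 averaged 423.5 TPM in D6, 250.0 in IgE PC and 317.0 in IgG1 PC. On the CPM scale the order was the opposite, at 555.2 in D6, 621.6 in IgE PC and 704.1 in IgG1 PC. The sum was not taken on that scale.

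**Figure D3:**
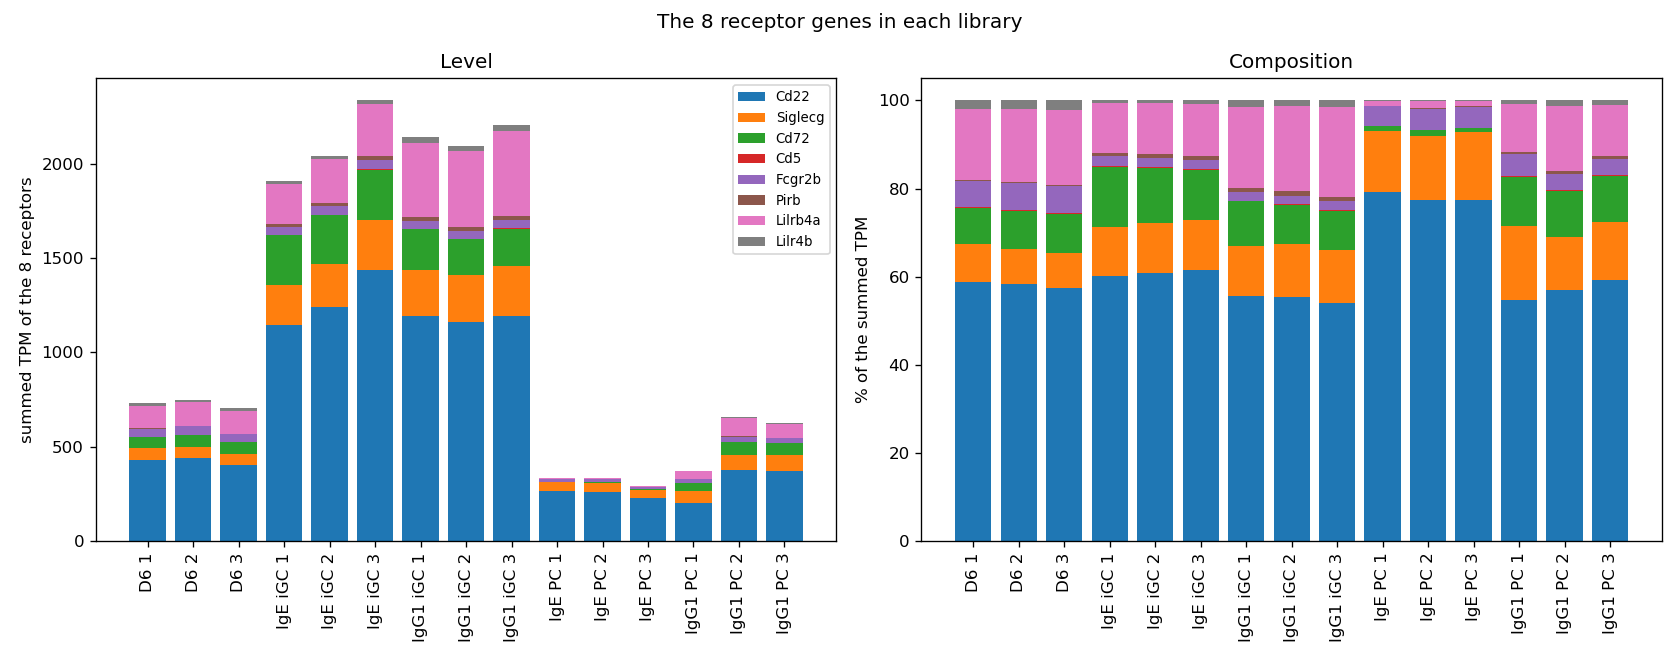
TPM of the 8 receptor genes stacked for each library (left) and as a percentage of their sum (right), both from 0. In the 3 IgE PC libraries Cd22 and Siglecg together fill 91.9% to 93.0% of the bar, against 65.4% to 72.8% in the other 12.

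Other genes of the pathway were counted from lists of related genes. Of 16 tested inhibitory receptors outside the 10, 2 were higher and 9 lower in IgE PC than in IgG1 PC (median log2 -0.77), beside 27.4% higher and 30.7% lower over all genes. The 7 lower by at least 2-fold were Pdcd1, Fcrl5, Klrg1, Cd200r1, Lag3, Havcr2 and Ctla4. Their highest counts in any library were only 50 (Pdcd1) to 468 (Ctla4), so the count and the median rest largely on genes with few reads. Fcrl1, an Fc receptor-like protein of B cells, was lower (log2 -0.95, SE 0.13, adjusted p = 1.45e-05), as was Ceacam1, an inhibitory adhesion receptor (log2 -0.59, SE 0.11, adjusted p = 0.000409). Tigit, an inhibitory receptor best known on T and NK cells, was higher (19.2 ± 2.37 against 11.2 ± 1.99 CPM, log2 0.78, SE 0.15, adjusted p = 0.000331), as was Vsir, which encodes the checkpoint protein VISTA (154.3 ± 4.62 against 122.2 ± 16.3 CPM, log2 0.34, SE 0.07, adjusted p = 0.00084). Both of these rose from iGC to PC, Tigit by 6.86 on the log2 scale in IgE and 6.26 in IgG1, from under 0.3 CPM. From iGC to PC, 4 of the 16 rose and 7 fell in IgE, and 6 rose and 7 fell in IgG1, beside 30.5% and 33.6% of all genes in IgE and 30.1% and 29.0% in IgG1.

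Among 21 other phosphatases and adaptors, 6 were higher and 7 lower in IgE PC than in IgG1 PC (median log2 0.05), which is near the 27.4% and 30.7% of all genes. Inpp4b, a lipid phosphatase that acts after SHIP-1, was 4.47-fold higher in IgE PC (69.2 ± 4.81 against 15.3 ± 5.19 CPM, log2 2.16, SE 0.18, adjusted p = 1.81e-07). Dok2, an adaptor that binds the Ras inhibitor RasGAP, was lower (log2 -1.94, SE 0.09, adjusted p = 4.84e-10), and so was Phlpp1, a phosphatase of Akt (log2 -1.11, SE 0.15, adjusted p = 2.05e-05). From iGC to PC 5 of the 21 rose and 11 fell in IgE, where 30.5% and 33.6% of all genes did, and 4 rose and 11 fell in IgG1, where 30.1% and 29.0% did.

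Of 14 activating partners, the kinases, adaptors and coreceptors through which the B cell receptor signals, 3 were higher and 7 lower in IgE PC than in IgG1 PC (median log2 -0.18), beside 27.4% and 30.7% of all genes. Bank1, a scaffold for Lyn and calcium release, was lower (log2 -1.53, SE 0.14, adjusted p = 2.69e-07), as was Cr2, the complement receptor CD21 (log2 -1.43, SE 0.15, adjusted p = 1.64e-06). Cd81, a membrane protein of the tetraspanin family, was higher (log2 0.41, SE 0.09, adjusted p = 0.00104). In iGC cells Syk, the kinase next to the B cell receptor, was the only one of the 14 called, where 1.99% of all genes were higher and 1.88% lower; it was lower in IgE (230.9 ± 8.68 against 388.7 ± 9.44 CPM, log2 -0.75, SE 0.06, adjusted p = 6.19e-06). From iGC to PC 2 rose and 10 fell in each isotype, beside 30.5% and 33.6% of all genes in IgE and 30.1% and 29.0% in IgG1.

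Of 10 genes on the side of the ligands, 5 were higher and 1 lower in IgE PC than in IgG1 PC (median log2 0.22), beside 27.4% and 30.7% of all genes. Cmas and Cmah, which activate sialic acid and convert it to the glycolyl form bound by mouse CD22, were higher by 0.91 (SE 0.07, adjusted p = 5.33e-08) and 0.79 (SE 0.08, adjusted p = 1.12e-06). Sema4d, which encodes the CD72 ligand semaphorin 4D, was lower (log2 -0.25, SE 0.08, adjusted p = 0.0151). From iGC to PC 8 of the 10 rose and 2 fell in IgE, where 30.5% and 33.6% of all genes did, and 7 rose and 2 fell in IgG1, where 30.1% and 29.0% did. Gne, the first enzyme of sialic acid synthesis, rose by 2.64 in IgE (SE 0.11, adjusted p = 9.70e-12) and 2.11 in IgG1 (SE 0.11, adjusted p = 2.71e-10), and St6gal1, which makes the linkage CD22 binds, rose by 1.80 in IgE (SE 0.06, adjusted p = 1.45e-12). The enzymes that make the ligand of CD22 and the gene of the receptor itself thus moved in opposite directions over this step.

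**Figure D4:**
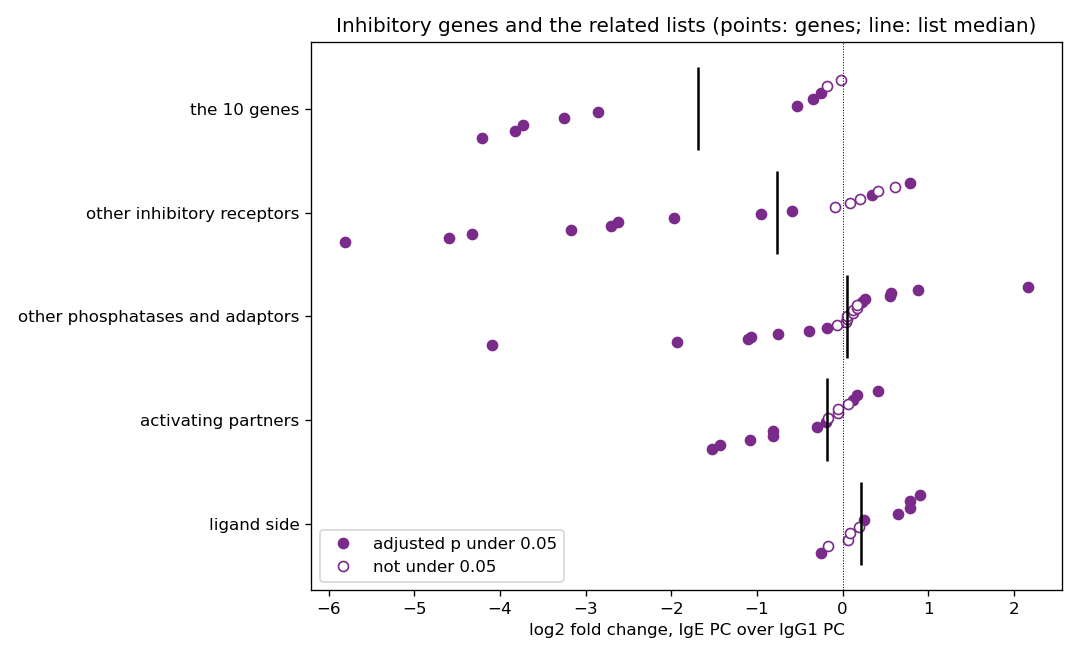
Log2 fold change of IgE PC over IgG1 PC for the 10 genes and the 4 lists of related genes, with 1 point per tested gene, filled where the adjusted p was under 0.05, and a line at each list's median. The 10 genes have the lowest median, -1.69, and the ligand genes the highest, 0.22. Among the other inhibitory receptors, the 7 called genes lower by at least 2-fold had few reads.

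The genes with the most similar profile were sought by the Pearson correlation of log2 CPM over the 15 libraries, among 8972 genes. Lilrb4a was closest to Tlr1 (r = 0.998), a Toll-like receptor, and Lilr4b to Zeb2 (r = 0.995). Pirb was closest to Slc4a8 and Haao (both r = 0.996), Cd22 to Crlf3 (r = 0.996) and Pstpip1 (r = 0.990), Siglecg to Cd86 (r = 0.993), a costimulatory ligand, and Cd72 to Sorl1 (r = 0.990). Ptpn6 was closest to Rbm43 (r = 0.993), Inpp5d to Msn (r = 0.990) and Fcgr2b to D10Wsu102e (r = 0.981). Libraries of a group share their group's mean, so these values describe a common order of 5 groups more than 15 independent points. Cd5 was under 5 CPM in every group and was not matched.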

How the data were processed

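RNA-seq was available for 15 libraries, polyA-selected and sequenced as 76-base single-end strand-specific reads, per the labels' protocols. The authors deposited 1 table with an expected count (RSEM's estimated count, with reads of several genes divided among them) and a TPM for each of 51912 genes and each library, per the file headers. The submitters' processing notes name cutadapt 1.9.1, STAR 2.5.2a, RSEM 1.3.0, DESeq2 1.12.3 and GRCm38. Symbols were paired with 51633 identifiers.

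The 10 genes and the related lists were chosen with earlier results of these data known. Expected counts were rounded, filtered with filterByExpr (minimum count 10, minimum total 15; 15692 genes left) and scaled by TMM (factors 0.764 to 1.15). Each group had its own mean in a fit of edgeR 4.0.16 (R 4.3.3; glmQLFit, robust, and glmQLFTest; common dispersion 0.0109, 10 residual degrees of freedom) to the 15 libraries together. A gene was called where its adjusted p (Benjamini-Hochberg, over all genes tested) was under 0.05. Standard errors were taken from the fold change and its F statistic and are approximate, as are the intervals, which use the fit's t distribution. The difference of the falls is the change from iGC to PC in IgE minus that in IgG1. Fold changes of genes with few counts, such as Cd5 in IgE PC, are fitted values. No 2 replicates agreed within sampling noise (chi-square per degree of freedom 4.55 to 94.6 over 15 pairs, the highest for IgG1 PC replicate 1). The fit was tested on simulated data: fold changes were recovered without bias and false calls were few, but some genes made to change were missed, more of them than the limit first set for the larger changes, and that limit was then relaxed. Few genes were changed in the simulation, in IgE PC only and equally up and down. It therefore could not test the scaling where as many genes differ as in these data. RNA-seq reads carry no molecular identifiers here, so repeated reads of 1 molecule could not be told from reads of separate molecules.

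From each related list and comparison, the genes named had to be called, reach 10 CPM in a group compared and have the largest change, up to 2 in each direction; not all are reported here. The fibroblast, T cell, myeloid, mast cell, B cell and plasma cell markers were lists of the same kind. Read-length windows were taken from the coding transcripts of the 10 genes in GENCODE vM21 (GRCm38). They were searched for in the transcripts of all other genes there, coding or not. Promoters came from RefSeq. Of 5 motifs searched on both strands in the promoters, the PU.1-type letters were found in 4 genes and an ETS-IRF composite in 1, Fcgr2b (2.71% of all promoters); the octamer, the interferon response element and the E-box were found in none. Alternatives were size factors of DESeq2, total-count scaling, DESeq2 1.42.0, no filter, only the groups compared, the replicate number as a block, limma 3.58.1 on log2(TPM + 0.1) and leaving out each library; summing near-identical copies was added after the data were seen.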

Additional observations from a re-analysis of the deposited data

Results flagged for a closer look

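For 8 of the 10 genes the isotypes differed in the step from iGC to PC by the interaction test in edgeR, each with the larger fall in IgE. As the change in IgE minus that in IgG1 on the log2 scale, Cd72 stood at -4.13 (adjusted p = 1.30e-09), Cd5 at -3.24 (adjusted p = 1.34e-05), Lilr4b at -3.16 (adjusted p = 0.000148), Lilrb4a at -3.04 (adjusted p = 5.37e-06) and Pirb at -2.57 (adjusted p = 1.33e-06). The other 3 were smaller: Ptpn6 at -0.58 (adjusted p = 0.000111), Siglecg at -0.44 (adjusted p = 0.0069) and Fcgr2b at -0.42 (adjusted p = 0.00201). Among all genes 19.8% were called in the positive and 23.1% in the negative direction. B cell, myeloid and fibroblast markers also differed between the isotypes over this step, with 3 of 4, 3 of 4 and 5 of 6 tested markers called negative, and their part in the result was not tested.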

How the results depend on the processing

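Of 1266 values recomputed for single genes under the alternatives, 1186 kept their direction and their side of the threshold, 32 lost a call, 25 gained one and 23 changed sign. The count of the 10 genes called, and that of all genes, stayed within 1.5 times in 8 of the 9 comparisons. The exception was IgE iGC against IgG1 iGC, with 2 of the 10 and 607 of all genes called: total-count scaling and no filter each called 1 of the 10, DESeq2 4 and 937, limma on TPM 0 and 340, the fit to those groups alone 5 and 1503, and leaving out 1 library gave 0 to 1 and 323 to 403. Values that changed sign were small in the comparisons of isotypes. Inpp5d in PC went from -0.023 to 0.022 with the size factors of DESeq2 and to 0.0216 in DESeq2 itself (-0.091 to 0.032 on leaving out 1 library), in iGC cells to 0.0025 and 0.0023 (-0.0205 to 0.0134), and in the interaction to 0.0197 and 0.0193 (-0.0860 to 0.0373). Cd5 in iGC cells ranged from -0.124 to 0.0859 on leaving out 1 library. Against D6, total-count scaling put Cd22 and Siglecg in IgE PC at -0.37 and -0.12, and limma on TPM put them at -0.76 and -0.35. Limma on TPM also put Cd22 and Cd72 in IgG1 PC at -0.47 and -0.14 and Fcgr2b in IgG1 iGC at -0.0397. Lilrb4a in IgG1 PC ranged from -0.449 to 0.0931 on leaving out 1 library. Apart from the scaling, whose effect is a shift of all genes by up to -0.53 on the log2 scale, the cause was not tested.

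Titles share replicate numbers, but deviations of same-numbered libraries correlated between -0.16 and 0.08, so the numbers were not taken to pair them. With the replicate number as a block, 8 of the 10 genes were still called between IgE PC and IgG1 PC; of 90 results, 2 changed their call, both in iGC cells, Cd72 (log2 0.40, adjusted p = 0.0547) and Lilrb4a (log2 -0.78, adjusted p = 0.0255).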
